A study of Mus musculus with 30 samples.

Results

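The chemokine ligand genes are the genes whose symbols begin with Ccl, Cxcl, Cx3cl or Xcl followed by a number. They were picked from the deposited expression table by the RefSeq accession of each row, with the row of the highest mean kept for each gene. This gave 36 ligand genes of 20842 named genes, namely 22 Ccl, 12 Cxcl, 1 Cx3cl and 1 Xcl gene. Of these, 25 had a mean of at least 1 RPKM (read numbers divided by transcript length and library size, so that levels of genes can be compared) and were tested with the 13614 genes above that mean. The other 11 are described by their levels. Ccl21c repeated the values of Ccl21b, with a ratio between 0.958 and 0.963 in every tumour with a value above 0, so counts of ligands are out of 24.

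Chemokines are small secreted proteins that bind G-protein-coupled receptors on leukocytes and draw these cells along a gradient. Some act in inflammation, made by macrophages, fibroblasts, endothelium and epithelium after a stimulus, and others are made steadily in lymphoid organs and place lymphocytes there. In mammary tumours of mice and humans they are known for bringing in monocytes, neutrophils and lymphocytes, and atypical receptors remove them without calling cells in.

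The samples were 30 mammary tumours, 1 from each of 30 mice, all in 1 group. Every mouse came from a backcross in which a cross of the MOLF strain with a PyMT mouse was bred to FVB, written ((MOLF x PyMT) x FVB) in the labels. PyMT is the polyoma virus middle T oncogene, which induced the tumours. Each mouse of such a backcross has its own mixture of MOLF and FVB alleles, and the labels give no genotype, age or treatment. RNA was poly-A selected from whole tissue, so a ligand's level sums tumour cells and all others, and fewer cells of a type and less RNA per cell cannot be told apart. The p-values below measure the spread between these tumours, technical spread included.

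The tissue label was met by its markers: the lowest of 30 values was 284.1 RPKM for Krt8, 326.5 for Krt18 and 312.8 for Epcam, genes of luminal epithelium. Read depth recovered from the low values split the libraries into 14 deep ones, of 116.8 to 196.3 M reads, and 16 shallow ones, of 42.2 to 62.0 M. The median correlation of a library with the other 29, across all tested genes, was lowest for animal 4150 (0.919), followed by 3273 (0.928) and 4036 (0.937), and reached 0.965. No tested ligand changed with depth class, where 1.23% of all genes did, and none with the insert size in the labels, where 0.0294% did (limma, adjusted p). At an unadjusted p below 0.05 there was 1 ligand for depth class and 2 for insert size.

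The most abundant ligand transcripts were Ccl8, a monocyte and T cell attractant, with a mean of 29.1 ± 15.4 RPKM (SD, n = 30), and Cx3cl1, the membrane-bound chemokine fractalkine, with 27.7 ± 8.76. Cxcl14, an epithelial and fibroblast chemokine, followed with 15.5 ± 6.07, then Ccl6 with 15.1 ± 10.9 and Cxcl16, a membrane-bound ligand of Cxcr6, with 14.4 ± 3.05. The ranges of these 5 over the 30 tumours overlapped. Ccl27a, known from skin epithelium, had 9.94 ± 2.65, but its locus overlaps Il11ra1, so reads of both genes cannot be told apart. The same limit holds for Cxcl16, whose locus overlaps Zmynd15, and for Cxcl10, whose locus overlaps Art3. Between 3 and 7 RPKM lay Cxcl12, Ccl5, Cxcl1, Ccl9, Ccl11, Cxcl17, Ccl21a, Ccl25 and Ccl2. Ccl17, Ccl12, Ccl7, Ccl21b, Ccl21c, Cxcl13, Ccl4, Ccl3, Cxcl10 and Xcl1 lay between 1.001 and 2.92 RPKM. Ligands varied more between tumours than most genes did: the median SD of log2(RPKM + 1) was 0.54 over the 24 ligands and 0.27 over all tested genes. An SD of at least 0.5 was seen for 15 of the 24 ligands and for 11.8% of all tested genes.

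**Figure D1:**
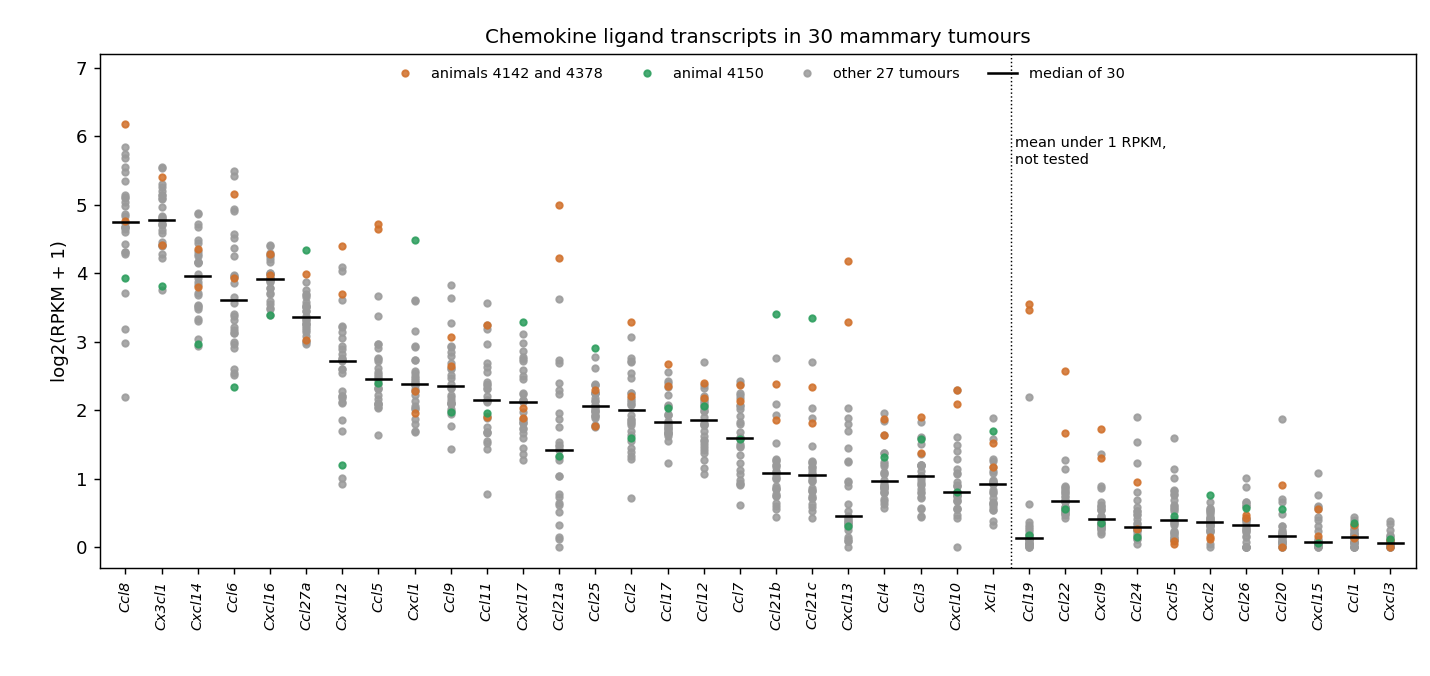
Level of each ligand transcript, as log2(RPKM + 1) on the vertical axis, with 1 point per tumour and a bar at the median of 30 tumours, ordered by mean. Animals 4142 and 4378 (orange) stand above the other tumours for Ccl5, Ccl21a, Cxcl13, Ccl19 and Ccl22, and animal 4150 (green) for Cxcl1, Ccl27a and Ccl21b.

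The highest values of the 36 ligands fell in 13 of the 30 tumours. Animals 4142 and 4378 each had the highest value of 6 ligands and animal 4150 of 7, with Ccl21c counted, while animals 4036 and 3273 had the highest value of 3 each. Animal 4438 had the lowest value of 7 ligands and animal 4547 of 5, counting ligands listed at 0 in at most 1 tumour. The 18 T cell markers summed to 97.1 RPKM in animal 4142 and 122.3 in 4378, against 20.8 to 59.7 in the other 28 tumours. The 12 B cell markers summed to 103.1 and 149.4, against 4.73 to 48.6. In 11 of these 12 and in 16 of the 18 T cell markers the highest tumour was animal 4142 or 4378, and 3 B cell markers were at 0 in at least 1 tumour. All 21 stroma matrix markers and all 13 endothelial markers were highest in animal 4036 or 3273, as were 11 of 12 adipocyte markers.

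Among the ligands known from lymphoid organs, Ccl21a was above 1 RPKM in 21 of 30 tumours, Cxcl13 in 9 and Ccl19 in 3. Ccl21a, which guides T cells and dendritic cells through Ccr7, ran from 0 in animal 4438 through a median of 1.68 RPKM to 30.8 in animal 4142, 17.7 in 4378 and 11.4 in 4038. Cxcl13, the B cell attractant of lymphoid follicles, ran from 0 in animal 4144 through a median of 0.370 to 17.1 RPKM in animal 4378, 8.73 in 4142 and 3.11 in 4038. Ccl19, the other ligand of Ccr7, had a median of 0.0935 RPKM and reached 10.8 in animal 4378, 10.1 in 4142 and 3.59 in 4038, with no other tumour above 0.556. The same 3 animals thus held the 3 highest values of Ccl21a, Cxcl13 and Ccl19. The labels do not say whether a sample included neighbouring lymph node or fat. Their part in these values, and in the lymphocyte and adipocyte scores below, was not tested. Ccl21a, Ccl21b and Ccl21c are near-identical copies on chromosome 4 whose reads the authors' counting could split, and their values are uncertain for that reason. Ccl21b was highest elsewhere, in animal 4150 with 9.62 RPKM, where Ccl21a had 1.51.

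Ccl5, made by T cells, natural killer cells and macrophages, ran from 2.12 RPKM through a median of 4.49 to 25.4 in animal 4142, 23.9 in 4378 and 11.8 in 4038. Cxcl10, an interferon-induced attractant of T cells through Cxcr3, ran from 0 in animal 4438 through a median of 0.751 to 3.93 in animal 4142, 3.92 in 4036 and 3.27 in 4378. Cxcl9, a related Cxcr3 ligand, was below 1 RPKM in all tumours except animals 4378 (2.32), 4036 (1.56) and 4142 (1.46). Ccl5 was thus high in the tumours with high lymphoid ligands, while the Cxcr3 ligands were also high in animal 4036. Of the ligands of Ccr4, a receptor of helper and regulatory T cells, Ccl17 ran only from 1.34 to 5.39 RPKM and Ccl22 from 0.344 to 4.97, highest in animal 4378.

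Each gene was regressed on the score of a marker list, the mean standardised level of its tested members scaled to an SD of 1, with limma across the 30 tumours and Benjamini-Hochberg adjustment over all tested genes. Slopes are in log2(RPKM + 1) per SD of the score, ± standard error, and a gene passed at an adjusted p below 0.05. In fits of fewer tumours the score was made anew and scaled to an SD of 1 within them. Slopes of such fits are thus in another unit than those of all 30. No list holds a ligand. The T cell score used 8 markers, led in level by Lck, Cd4 and Lat, and the B cell score 6, Cd79a and Cd79b among them. With the T cell score, 5 of 24 ligands rose and 0 fell, where 1.51% of all tested genes rose and 0.0294% fell. These were Ccl5 (0.62 ± 0.06), Ccl21a (0.75 ± 0.17), Cxcl13 (0.66 ± 0.13), Cxcl10 (0.36 ± 0.07) and Ccl17 (0.19 ± 0.05). With the B cell score, 4 rose and 0 fell, where 1.29% of all genes rose and 0.0294% fell. The slopes on it were 0.86 ± 0.15 for Ccl21a, 0.75 ± 0.11 for Cxcl13, 0.63 ± 0.06 for Ccl5 and 0.40 ± 0.07 for Cxcl10. The median slope of the 24 ligands was 0.042 on the T cell score and 0.098 on the B cell score, against 0.010 and 0.002 over all genes. Ligands below the filter were fitted with all genes without it, where the scores used all 12 B cell and all 18 T cell markers. These scores differ from those above, so slopes on them cannot be set beside the ones above. On that B cell score Ccl19 had a slope of 0.89 ± 0.05, Ccl22 of 0.40 ± 0.03 and Cxcl9 of 0.30 ± 0.04. All 3 had adjusted p below 0.05, as did 2.58% of all genes. In that fit the 3 also passed on the T cell score, with 0.86 ± 0.06 for Ccl19, as did 2.84% of all genes.

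**Figure D2:**
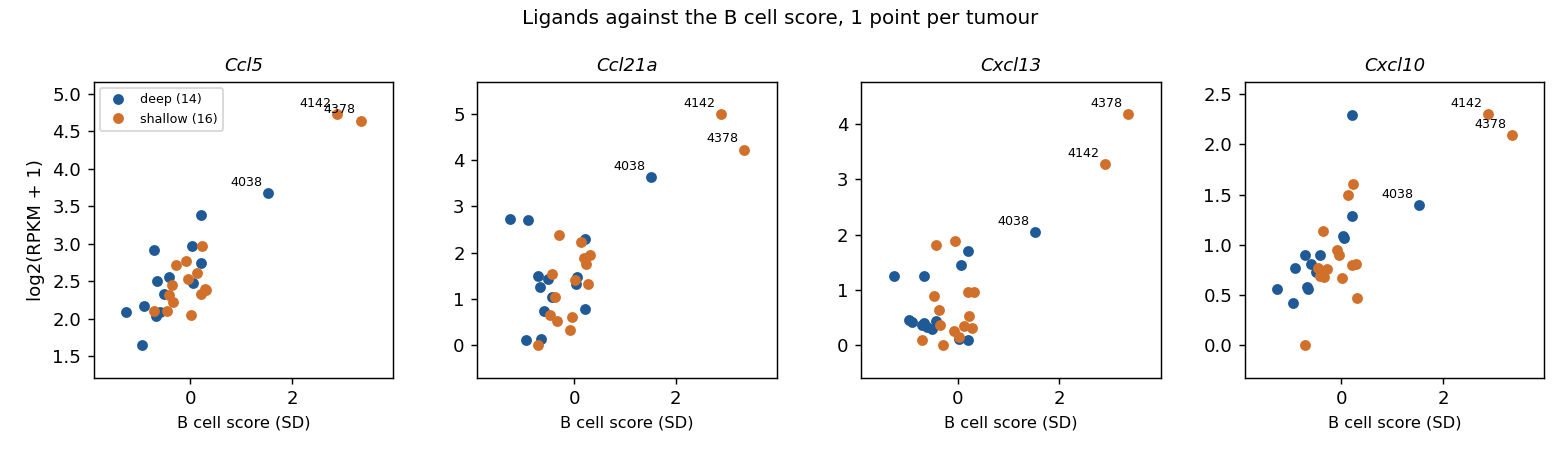
Level of Ccl5, Ccl21a, Cxcl13 and Cxcl10, as log2(RPKM + 1), against the B cell score in SD, 1 point per tumour, coloured by depth class. Animals 4142 and 4378 lie at the far right and above nearly all other points in each panel, and among the other tumours the spread at a given score is wide.

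The calls on these 2 scores rested largely on animals 4142 and 4378. Without them the mean was 0.796 RPKM for Cxcl13 and 0.957 for Cxcl10, so these ligands were above the filter, and thus tested, only through the tumours at the top of both scores. Without both, an alternative chosen after seeing the data, 1 ligand passed on each of the 2 scores: Ccl5, with slopes of 0.32 (adjusted p = 0.00233) on the T cell score and 0.31 (adjusted p = 0.0108) on the B cell score. There the slopes of Cxcl13 were 0.084 and 0.18, and those of Ccl21a 0.20 and 0.36, all with adjusted p above the threshold. These slopes, and those of each depth class, are per SD among the tumours kept. Their size cannot be set beside the slopes over all tumours. Leaving out animal 4142 alone or 4378 alone left 2 ligands on the T cell score, and Ccl17 lost its call without any of 20 animals. Within the 14 deep libraries, which hold neither animal, 1 ligand passed on each score, again Ccl5 (0.49 and 0.47). Within the 16 shallow libraries 3 passed on the T cell score and 4 on the B cell score, where Ccl5 had 0.73 and 0.77.

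The interferon response score, from 24 genes such as Irf7 and Rtp4, had 1 ligand rising with it, Cxcl10 (0.31 ± 0.08, adjusted p = 0.0461), where 0.846% of all genes rose and 0.125% fell. The median ligand slope was 0.13, against -0.007 over all genes. That call was lost on leaving out any of 19 animals, and also within the deep (0.30, adjusted p = 0.293) and the shallow libraries (0.40, adjusted p = 0.128), and without animal 4030 the count was 2. In the shallow libraries 2 other ligands passed, Ccl5 (0.64 ± 0.12, adjusted p = 0.0114) and Cxcl13 (0.87 ± 0.20, adjusted p = 0.0427). The highest interferon score of the shallow libraries was 2.49 in animal 4378, and the next was 0.42 in animal 4142. Ccl5 and Cxcl13 had 23.9 and 17.1 RPKM in animal 4378. The share of all genes passing in the shallow libraries is not given. Without the filter on low levels Cxcl9 had a slope of 0.24 ± 0.05 (adjusted p = 0.00628), where 0.847% of all genes passed. The promoter of Cxcl10 is shown because the interferon score was tested on it. The capitals mark GAAANNGAA, 9 letters of the interferon-stimulated response element, searched on both strands in the 250 bases before each start site. The sequence comes from RefSeq on build GRCm38.p6, minus strand, chr5:92348890-92349109, and ends at the base before the start site:
Cxcl10: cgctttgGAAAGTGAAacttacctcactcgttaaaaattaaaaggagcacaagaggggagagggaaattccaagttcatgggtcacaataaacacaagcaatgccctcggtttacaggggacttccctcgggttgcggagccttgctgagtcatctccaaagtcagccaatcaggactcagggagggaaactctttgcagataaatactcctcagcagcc

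The match lies 205 to 213 bases before the start site. The same letters occurred in the windows of Cxcl9, Ccl19, Cxcl14, Ccl3 and Ccl1 and in 7.13% of 32851 promoter windows of that length. Windows were found for 25 of the 36 ligand genes, 17 of them tested. A match is a description of letters and no evidence of binding.

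The monocyte attractants Ccl8, Ccl2, Ccl7 and Ccl12, all on chromosome 11, had values above 0 in every tumour. Ccl8 ran from 3.59 RPKM in animal 4438 through a median of 25.9 to 71.5 in animal 4142, with 56.4 in 3939 and 52.5 in 4036. Ccl2, the main Ccr2 ligand of mice, ran from 0.643 in animal 4547 through a median of 3.02 to 8.82 in animal 4378 and 7.41 in 3540. Ccl7 had a median of 2.03 RPKM (0.527 to 4.36) and Ccl12 of 2.63 (1.095 to 5.51). The lowest value of both Ccl2 and Ccl7 was in animal 4547. Ccl6 and Ccl9, rodent ligands of Ccr1 made by myeloid cells, were both highest in animals 4036 and 3273. Ccl6 reached 44.1 and 42.0 RPKM there, against a median of 11.2 and a lowest value of 4.04 in animal 4150. Ccl9 reached 13.2 and 11.5, against a median of 4.11 and a lowest value of 1.699 in animal 4547.

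Ccl3 and Ccl4, the macrophage inflammatory proteins, were low, with medians of 1.06 and 0.946 RPKM and highest values of 2.74 in animal 4378 and 2.91 in animal 3654. RefSeq places these genes over each other, so reads of both could be mixed. The eosinophil attractant Ccl11 ran from 0.710 in animal 4547 through a median of 3.43 to 10.8 RPKM in animal 3273, 8.53 in 4142 and 8.43 in 4036. Its relative Ccl24 was lower, with a median of 0.224, and was highest in 3273 (2.75) and 4036 (1.91). The remaining eotaxin, Ccl26, was at 0 in 6 tumours and at most 1.02. Ccl11 and Ccl24 thus shared their high tumours with Ccl6 and Ccl9.

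Cxcl12, the fibroblast and endothelial ligand of Cxcr4, ran from 0.889 RPKM in animal 4438 through a median of 5.62 to 20.02 in animal 4142, 16.04 in 4036 and 15.4 in 3273. Cxcl14 ran from 6.70 in animal 4438 to 28.4 in 3871 and 28.1 in 4036. Among the membrane-bound ligands, Cx3cl1 ran from 12.5 in animal 4438 to 45.8 in 4042 and 45.4 in 4036, and Cxcl16 only from 9.46 to 20.2. Animal 4438 was therefore the lowest for Ccl8, Cxcl12, Cxcl14 and Cx3cl1.

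With the macrophage score, from 18 markers led by Ctss, Cd14 and C1qa, 9 of 24 ligands rose and 1 fell, where 6.96% of all genes rose and 1.90% fell. The steepest were Ccl8 (0.58 ± 0.12), Cxcl12 (0.55 ± 0.12) and Ccl6 (0.52 ± 0.13), and the others were Cxcl14, Ccl11, Ccl9, Cxcl10, Cx3cl1 and Cxcl16. Ccl25, a thymus and gut chemokine, fell by 0.191 ± 0.041 per SD. The stroma matrix score, from 21 genes led by Col1a1, Col3a1 and Sparc, gave the same 9 ligands rising and Ccl25 falling, where 10.8% of all genes rose and 12.4% fell. Its slopes were 0.65 ± 0.11 for Ccl6, 0.64 ± 0.10 for Cxcl12, 0.61 ± 0.11 for Ccl8, 0.43 ± 0.08 for Ccl11, 0.40 ± 0.07 for Ccl9 and 0.40 ± 0.07 for Cxcl14. On the same score Ccl25 had -0.18 ± 0.04. The median ligand slope was 0.15 on the macrophage and 0.18 on the stroma matrix score, against -0.003 and -0.015 over all genes. Ccl2, Ccl7, Ccl12, Ccl3 and Ccl4 passed on neither score. Of the 18 macrophage markers 3 were highest in animal 4142 or 4378 and 8 in 4036 or 3273. Marco had a median of 0.025 RPKM and reached 36.2 in animal 4142, where Ccl8 and Cxcl12 were also highest. Its mean of 1.49 RPKM, and so its place in the score, came through that tumour.

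**Figure D3:**
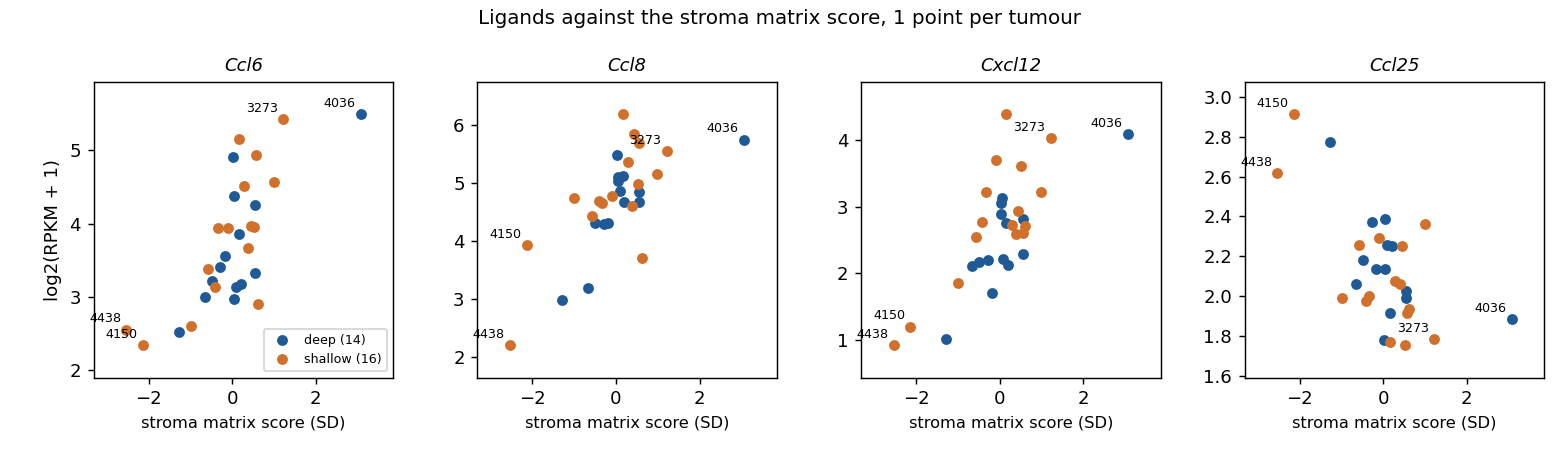
Level of Ccl6, Ccl8, Cxcl12 and Ccl25, as log2(RPKM + 1), against the stroma matrix score in SD, 1 point per tumour, coloured by depth class. Ccl6, Ccl8 and Cxcl12 were low in animals 4438 and 4150, at the left, and Ccl25 was high there.

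The relation to the stroma matrix score was the steadier of the pair. Within the deep libraries 6 ligands passed on it (Ccl6, Ccl8, Ccl9, Ccl11, Cxcl12 and Cxcl14) and within the shallow ones 9, with Ccl6 at 0.63 and 0.72, while Cxcl16 lost its call without any of 10 animals and Cxcl10 without 4036. On the macrophage score 0 passed in the deep libraries and 3 in the shallow ones, with Ccl8 at 0.47 and 0.69, and leaving out animal 4036 alone left 5. In a fit with the T cell, macrophage, interferon, stroma matrix and proliferation scores together, 1 ligand passed on the stroma matrix score (Cxcl12, 0.79, adjusted p = 0.0164) and 0 on the macrophage score, where Ccl6, Ccl9, Ccl11 and Cxcl12 had slopes between -0.032 and -0.001.

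With the adipocyte score, from 11 genes led by Cfd, Car3 and Fabp4, 7 ligands rose and 0 fell, where 6.83% of all genes rose and 1.86% fell. These were Ccl6 (0.61 ± 0.12), Ccl21a (0.57 ± 0.19), Cxcl12 (0.54 ± 0.12), Ccl8 (0.49 ± 0.13), Ccl11 (0.44 ± 0.08), Ccl9 (0.40 ± 0.07) and Cxcl10 (0.34 ± 0.08). The median ligand slope was 0.098, against -0.011 over all genes. The summed level of the adipocyte markers ran from 61.8 RPKM to 3563 in animal 4036, with 2590 in 3273 and 2343 in 4142. Without animals 4036 and 3273, chosen after seeing the data, 3 ligands passed (Ccl6, Ccl9 and Ccl11), and within the deep libraries 0 and the shallow ones 3. Ccl21a lost its call without any of 20 animals. In the fit without the filter on low levels Ccl24 (0.35 ± 0.05) and Cxcl15 (0.18 ± 0.04) also passed on the adipocyte score, as did 9.58% of all genes. There the score used all 12 adipocyte markers.

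With the proliferation score, from 25 cell cycle genes led by Pcna, Ube2c and Rrm2, 5 ligands fell and 0 rose, where 6.87% of all genes fell and 9.10% rose. Cxcl12 fell by 0.407 ± 0.134 per SD, Ccl5 by 0.339 ± 0.110, Cxcl10 by 0.327 ± 0.078, Ccl11 by 0.305 ± 0.098 and Ccl9 by 0.255 ± 0.086. The median ligand slope was -0.19, against 0.003 over all genes. The count hung on single tumours: 1 ligand passed without animal 4142, 4438 or 4547, 2 without 4036 and 3 without 4459, and 0 passed within either depth class. In the fit with the other 4 scores Cxcl12 had a slope of 0.051 on it.

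**Figure D4:**
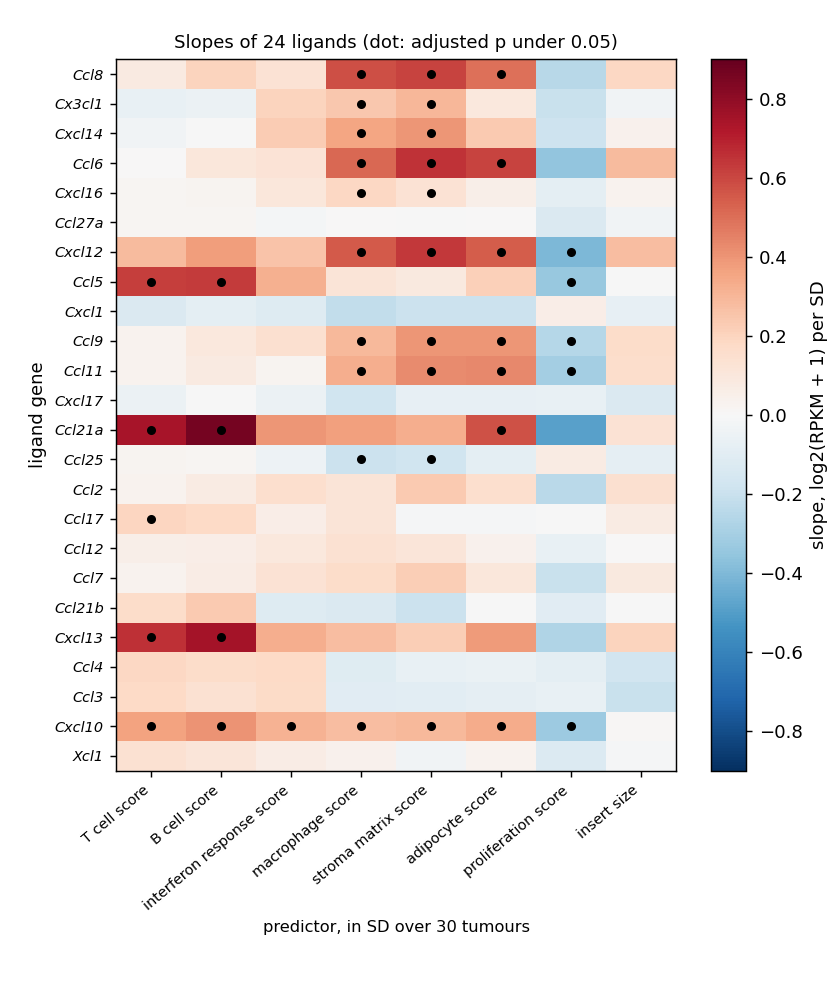
Slope of each of 24 ligands on 8 predictors, in log2(RPKM + 1) per SD of the predictor over 30 tumours, red for positive and blue for negative, with a dot where the adjusted p was below 0.05. Ccl5, Ccl21a, Cxcl13 and Cxcl10 carry dots under the T and B cell scores, and a partly different set led by Ccl6, Ccl8 and Cxcl12 under the macrophage and stroma matrix scores.

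Of the neutrophil attractants of chromosome 5, which act through Cxcr2, Cxcl1 alone was above the filter, and it passed on no score. It ran from 2.21 RPKM in animal 4036 through a median of 4.22 to 21.4 in animal 4150, with 11.2 in 3540 and 11.1 in 4030. Cxcl2 had a median of 0.292 and at most 0.691, also in animal 4150, and Cxcl3 a median of 0.0495 and at most 0.307. Cxcl5 had a median of 0.324 and reached 2.01 in animal 4030, where Ccl20, the Ccr6 ligand of epithelium, also had its highest value of 2.66. Cxcl15, known from lung epithelium, was at most 1.12 and highest in animal 3273. Of 12 neutrophil markers other than Ltf, 2 were also highest in animal 4150, S100a8 (205.5 RPKM, median 43.5) and Elane (27.1, median 9.71). With Ltf counted, 7 of 13 were highest in animal 4142 or 4378, S100a9, Ngp and Camp in 4378 among them. Cxcl1 had 3.88 RPKM in animal 4142 and 2.885 in 4378, below its median.

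Cxcl1, Cxcl2 and Cxcl3 had mean levels of 5.23, 0.299 and 0.0693 RPKM, and the bases before their start sites are shown because they share a motif while these levels differ. The capitals mark GGGANTTTC, 9 letters of an NF-kappaB site, searched on both strands. The stretches are from RefSeq on build GRCm38.p6, plus strand, at chr5:90891145-90891244, chr5:90903799-90903898 and chr5:90786001-90786100, each ending at the base before the start site:
Cxcl1: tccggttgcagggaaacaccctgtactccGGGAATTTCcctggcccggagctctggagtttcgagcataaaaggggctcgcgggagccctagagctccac
Cxcl2: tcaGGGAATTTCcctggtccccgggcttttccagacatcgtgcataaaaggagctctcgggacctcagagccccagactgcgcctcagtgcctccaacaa
Cxcl3: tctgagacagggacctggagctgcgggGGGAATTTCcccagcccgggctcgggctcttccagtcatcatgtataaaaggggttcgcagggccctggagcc

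The match began 71, 97 and 73 bases before the start site in Cxcl1, Cxcl2 and Cxcl3. Cxcl9 was the fourth ligand gene with it, on the other strand, and 0.940% of all promoter windows held it. TATAAA, searched in the same way, occurred in the windows of 9 ligand genes, Ccl8 and Ccl9 among them, and in 12.37% of all windows. TGANTCA, the AP-1 motif, occurred in those of Cxcl10, Ccl9 and Ccl27a and in 6.75% of all.

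Other ligands are known from epithelium. Ccl27a ran from 6.86 to 14.8 RPKM in 29 tumours and stood at 19.2 in animal 4150. Cxcl17, a mucosal chemokine, ran from 1.41 through a median of 3.37 to 8.73 in animal 4150 and 7.64 in 4262. Ccl25 ran from 2.37 through a median of 3.20 to 6.53 in animal 4150, with 5.85 in 3654 and 5.13 in 4438. Its row is a non-coding transcript of the gene. Animal 4150, the library with the lowest correlation to the others, was thus the highest for Cxcl1, Cxcl2, Ccl27a, Cxcl17, Ccl25 and Ccl21b. Xcl1, made by natural killer cells and CD8 T cells, ran from 0.251 to 2.69 in animal 4036 and 2.23 in 4150, and Ccl1, a Ccr8 ligand, was at most 0.360.

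Each tested ligand was then used as the predictor of all others, scaled to an SD of 1, to ask which ligands varied together. Of 552 ordered pairs of ligands, 89 passed (16.1%), 78 of them positive and 11 negative. Over the same 24 fits 6.58% of all gene tests passed, 3.55% positive and 3.03% negative. Of 276 unordered pairs 39 passed in both fits and 11 in 1 fit. Within the deep libraries 12 ordered pairs passed and within the shallow ones 31. Leaving out single animals gave 69 to 91, lowest without 4438.

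Many of the pairs joined ligands that rose with the stroma matrix score. Cxcl12 as predictor had 12 of 23 other ligands passing, 11 positive, where 16.4% of all genes passed. Ccl8 had 8 passing, 7 positive, where 4.67% of all genes passed. With Ccl9 as predictor, Ccl6 had a slope of 0.78 ± 0.08 and Ccl11 of 0.51 ± 0.06. With Ccl8 as predictor, Ccl6 had a slope of 0.69 ± 0.10 and Cxcl12 of 0.66 ± 0.10. Ccl25 had 6 of 23 other ligands passing, a share near the 20.8% of all genes that passed in either direction. All 6 were negative: Cxcl12, Ccl6, Ccl8, Cxcl14, Cx3cl1 and Cxcl16, with slopes from -0.58 to -0.15. The share of all genes that fell with Ccl25 is not given.

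A second set joined Ccl5, Ccl21a, Cxcl13 and Cxcl10, in which each pair passed in both fits. Animals 4142 and 4378 were among the 3 highest tumours for each of these ligands. Cxcl13 and Cxcl10 were above the filter only through these 2 animals (means of 0.796 and 0.957 RPKM without them). Slopes of these pairs without the 2 animals are not given, so the set cannot be told apart from those 2 tumours. With Ccl5 as predictor, 3 ligands passed, where 1.83% of all genes did: Ccl21a (0.85 ± 0.15), Cxcl13 (0.67 ± 0.13) and Cxcl10 (0.42 ± 0.06). Cxcl10 had 6 passing, where 9.13% of all genes did, since it also rose with Cxcl12, Ccl9 and Ccl11. Ccl2 and Ccl7 (0.42 ± 0.07 for Ccl2 on Ccl7), Ccl7 and Ccl12, and Ccl3 and Ccl4 (0.33 ± 0.04) made further pairs. The loci of Ccl3 and Ccl4 overlap, so reads of both could be mixed, and this pair is among those counted on chromosome 11. Ccl27a, Cxcl1, Cxcl17, Ccl17, Ccl21b and Xcl1 passed with no other ligand. Of the pairs on the same chromosome 15 of 64 passed in both fits (23.4%), 13 of them among the 55 on chromosome 11, and of pairs on different chromosomes 24 of 212 (11.3%).

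**Figure D5:**
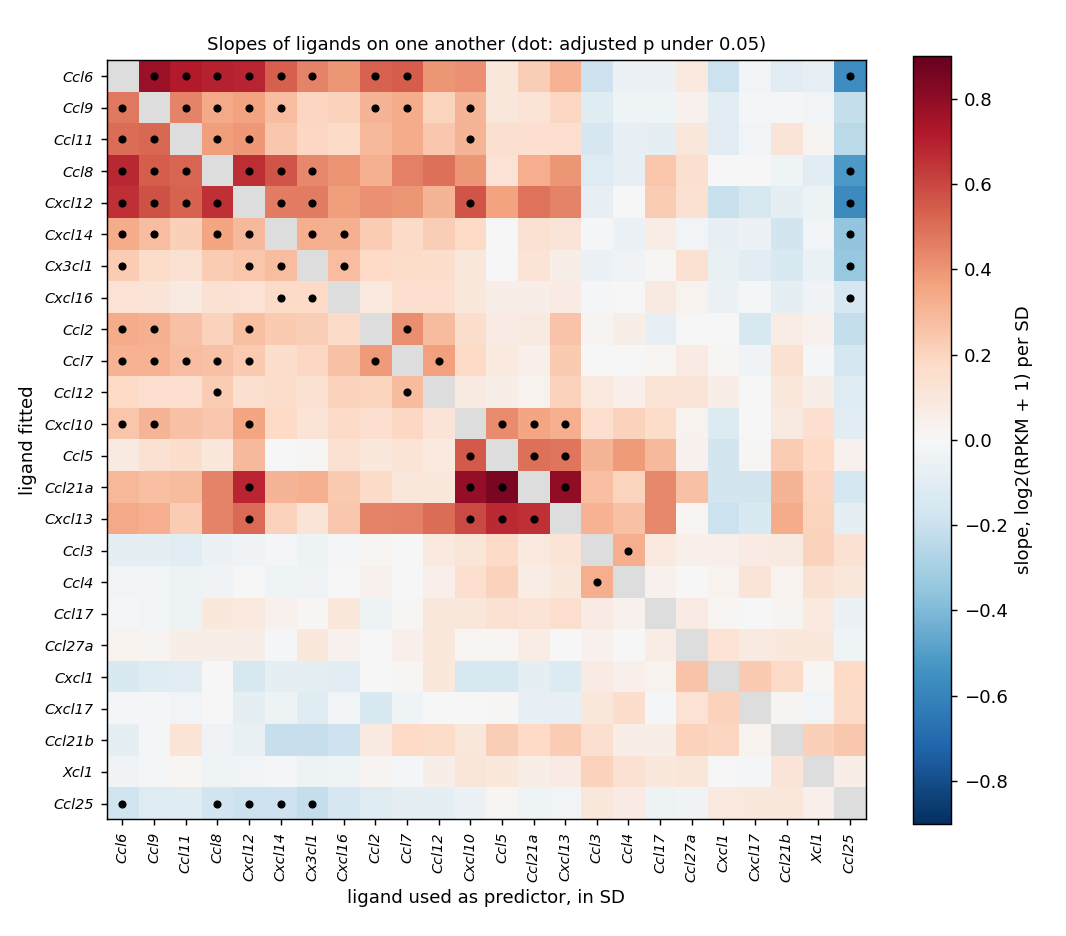
Slope of each ligand (rows) on each other ligand as predictor (columns), in log2(RPKM + 1) per SD, red for positive and blue for negative, with a dot where the adjusted p was below 0.05. Every pair carries a dot in the block from Ccl6 to Cxcl12 at the upper left. The same holds for the block of Cxcl10, Ccl5, Ccl21a and Cxcl13 in the middle. Most of all dots lie outside these blocks, and the row and column of Ccl25 are blue against the upper block.

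For each ligand, the 3 named genes outside the family with the smallest adjusted p and a positive slope were listed. For Ccl6 they were Lyve1, a hyaluronan receptor of lymphatic endothelium and some macrophages (0.64 ± 0.06), Serping1, the C1 inhibitor (0.72 ± 0.07), and Cd209f, a lectin of macrophages (0.94 ± 0.10). Serping1 was also nearest to Ccl9, followed by Rarres2, the chemerin gene, and Scara3. Ccl8 and Cxcl12 shared C1ra, a complement protease, as the nearest gene, and Cxcl12 was next to Selplg and the endothelial gene Pecam1. Ccl11 was nearest to Ifi205, Ly6c1 and the matrix gene Dpt, and Cxcl14 to Dpysl3, Cilp and Ptgis. Ccl5 was nearest to Rasal3, the B cell receptor gene Cd79b and the T cell receptor gene Cd3g. Among the genes nearest to Cxcl13 were Il21r and the B cell gene Cd22. Cd22, also a member of the B cell score, had a median of 0.68 RPKM and reached 9.795 in animal 4378. Cxcl13 and Cxcl10 were above the filter only through animals 4142 and 4378. The genes nearest to these ligands thus cannot be told apart from those tumours. Cxcl16 had Rhoc and the antigen presentation genes H2-Ab1 and Cd74. For Cxcl10 they were Il2rg, Enpp2 and Tnfrsf14, and for Ccl21a Gimap1, Coro1a and H2-Ob. Cx3cl1 was nearest to Shisa5, Igfbp5 and Papln. Cxcl1 was nearest to Atp5g1, Mrpl20 and Atox1, genes of mitochondria and copper transport, with slopes between 0.23 and 0.26. For Ccl25 they were Slc24a5, Hnrnph1 and Rabggtb, for Ccl17 Lat2, Fut7 and Zp1, and for Ccl27a Dalrd3, Tmem205 and Meis3. Ccl2 was nearest to the milk protein gene Lalba, with Lipa and Lrg1, and Ccl7 to Stom, Clu and Ly6a. Cxcl17 had Meis1, Ccl3 had Ptpn2 and Ccl4 had the milk gene Wfdc18 as the 1 such gene with an adjusted p below 0.05. Ccl12, Ccl21b and Xcl1 had no such gene with an adjusted p below 0.05, the smallest being 0.354, 0.146 and 0.196.

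Of the 24 chemokine receptor genes 11 had a mean of at least 1 RPKM. Cxcr4, the receptor of Cxcl12, was highest with 17.1 ± 6.88 RPKM, then Cx3cr1, the receptor of Cx3cl1 on macrophages, with 8.77 ± 2.42. Ccrl2 and the scavenging receptor Ackr3 had 5.62 ± 1.60 and 5.42 ± 1.95, and Ccr2 and Ccr8 had 3.37 and 3.01. Ackr4, Ccr1, Cxcr6 and Ackr1, the Duffy receptor of venules, had 2.67, 1.84, 1.64 and 1.17. With the macrophage score 5 of the 11 rose, among them Ccr2, Ackr1, Cx3cr1 and Ackr4, and 0 fell, where 6.96% of all genes rose and 1.90% fell. With the stroma matrix score 4 rose and Ccr8 fell by 0.241 ± 0.067, where 10.8% of all genes rose and 12.4% fell. With the adipocyte score Ackr1, Ccr2 and Ackr4 rose, where 6.83% of all genes did, and with proliferation Ccr2 fell by 0.331 ± 0.096, where 6.87% did. None passed on the T cell, B cell or interferon score (limma, adjusted p).

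Of 17 pairs of a tested ligand with a tested textbook receptor 2 passed, where 6.58% of all gene tests in the ligand fits did. They were Ccr1 on Ccl6 (0.15 ± 0.05, adjusted p = 0.0261) and Ccr1 on Ccl7 (0.19 ± 0.04, adjusted p = 0.0297). The count was 0 within the deep and 0 within the shallow libraries, 0 without animal 3654, 1 without 3273, 4036, 4042, 4262, 4438 or 4459 in turn, and 4 without 4357. The slope of Cxcr4 on Cxcl12 was 0.17 ± 0.10 (adjusted p = 0.228), of Cx3cr1 on Cx3cl1 0.11 ± 0.06 (adjusted p = 0.204) and of Ccr2 on Ccl2 0.33 ± 0.10 (adjusted p = 0.0621). Without the filter on low levels 6 of 27 pairs passed, adding Ccr7 on Ccl21a (0.43 ± 0.07), Cxcr5 on Cxcl13 (0.28 ± 0.05), Cxcr3 on Cxcl10 (0.18 ± 0.02) and Ccr3 on Ccl11 (0.031 ± 0.009). The 6.58% above is from the fits with the filter, and no such share is given for the fits without it. The mean levels of these receptors were 0.697 RPKM for Ccr7, 0.667 for Cxcr5, 0.499 for Cxcr3 and 0.0499 for Ccr3. Ccr7 and Cxcr5 were highest in animal 4378 (5.35 and 3.045 RPKM), Cxcr3 in 4142 (1.29) and Ccr3 in 3273 (0.199). Their ligands were also high in these tumours, and the pairs without them are not given. Receptors that were no textbook partner passed on several ligands: Ackr1 rose with Ccl6 by 0.47 ± 0.06 and with Ccl9 by 0.46 ± 0.06, and on Cxcl1 the receptors Cxcr6 and Cx3cr1 fell by 0.165 ± 0.043 and 0.196 ± 0.054 per SD.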

How the data were processed

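RNA of 30 tumours was poly-A selected and sequenced after size selection (per the labels' protocols). What the authors deposited is 1 table of RPKM values, with 27902 transcript rows. No source used here names the unit, which was inferred from the values. CASAVA 1.7.0 is among the named tools, per the submitters' processing notes. For build, annotation and read strand: not given in the sources used here. Hence reads of overlapping genes cannot be separated. There were 0 unused columns of samples.

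Rows were named with RefSeq's gene table of GRCm38.p6 (27161 rows) and GENCODE (159), which served for names and chromosomes only. Another 582 rows, holding 1.61% of summed RPKM, stayed unnamed. Each gene was represented by its row of highest mean. Read depth was recovered from low values: in each library 63.2 to 81.6% of them came within 0.12 of whole reads, where chance gives 24.0%. No count test was run, since that share is too small to rebuild counts. Depth classes were split at the largest gap and treated as a technical batch.

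Values were put on the log2(RPKM + 1) scale, on which folds of weakly expressed genes are understated. Tests took genes averaging 1 RPKM or more. Each fit used limma 3.58.1 in R 4.3.3 (two-sided, trend), and genes of the score's own list were left out of the background shares. Tables and figures used Python 3.11.15, pandas 2.3.3 and matplotlib 3.10.9. The fit was tested on simulated data with known slopes.

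Members, marker lists and tests were chosen with earlier results of these data known. The rule for names was: every tested ligand with its level, lower ligands with their highest tumour, the ligands that passed on each score, the 3 nearest genes of each ligand (leaving out predicted genes), and the tested receptors. Some genes that the rule names are not reported here. Alternatives covered the pseudocount, the filter, quantile normalization, depth class, ranks and left-out tumours.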

Additional observations from a re-analysis of the deposited data

How the results depend on the processing

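Counts are of ligands that passed on the T cell, B cell, macrophage, interferon, stroma matrix, adipocyte and proliferation scores (5, 4, 10, 1, 10, 7 and 5 above), and of ordered ligand pairs (89) and receptor pairs (2). Only counts that moved by over 1.5 times are given here, and their causes were not tested beyond what each setting changes. For settings with fewer tumours and for 5 scores in 1 fit the share of all genes passing is not given. With a pseudocount of 0.1 the T cell count was 2 and the interferon count 0. With a mean of at least 5 RPKM, which leaves 9 ligands, the counts were 1 for T cell, 5 for macrophage, 0 for interferon, 6 for stroma matrix, 3 for adipocyte, 2 for proliferation, 23 for ligand pairs and 0 for receptor pairs, and no B cell score could be made. Without the filter, which puts all 12 markers in the B cell score, the B cell count was 7 and the receptor pairs 6. Quantile normalization gave 3 for T cell, 0 for interferon, 2 for proliferation and 1 receptor pair. Within deep libraries the counts were 1 for T cell, 1 for B cell, 0 for macrophage, interferon, adipocyte and proliferation, 6 for stroma matrix, 12 ligand pairs and 0 receptor pairs, and fewer samples entered. Within shallow libraries they were 3 for T cell, 3 for macrophage, 2 for interferon, 3 for adipocyte, 0 for proliferation, 31 ligand pairs and 0 receptor pairs. Without the 2 tumours farthest from the predictor's median they were 1 for T cell, 1 for B cell, 3 for macrophage, 0 for interferon, 3 for adipocyte, 0 for proliferation, 50 ligand pairs and 1 receptor pair. With ranks as predictor they were 3 for T cell, 2 for B cell, 5 for macrophage and 0 for interferon. With 5 scores in 1 fit they were 3 for T cell, 0 for macrophage, 0 for interferon, 1 for stroma matrix and 1 for proliferation. Slopes changed sign in that fit for Ccl11 (-0.027), Ccl6 (-0.001), Ccl9 (-0.032) and Cxcl12 (-0.008) on macrophage, Cxcl16 (-0.128) on stroma matrix and Cxcl12 (0.051) on proliferation. Without animals 4142 and 4378, chosen after seeing the data, the counts were 1 for T cell, 1 for B cell, 0 for interferon, 2 for proliferation and 1 receptor pair. Without animals 4036 and 3273, also chosen after seeing the data, they were 5 for macrophage, 0 for interferon, 3 for adipocyte, 2 for proliferation and 1 receptor pair. Leaving out each animal in turn gave 2 to 5 for T cell, 4 to 4 for B cell, 5 to 10 for macrophage, 0 to 2 for interferon, 9 to 12 for stroma matrix, 5 to 8 for adipocyte, 1 to 7 for proliferation, 69 to 91 ligand pairs and 0 to 4 receptor pairs. Over all settings but the left-out single animals, 297 values of named ligands kept their side of the threshold, 166 lost it and 6 changed sign. Depth class as a covariate moved none of these counts by over 1.5 times. No paired analysis was possible because all tumours form 1 group. The number of tumours, the filter at 1 RPKM and reads shared by overlapping or near-identical genes limit what these values can show. Several ligands under 1 RPKM rest on few reads in most libraries, with medians near 5.16 reads for Ccl19, 5.92 for Ccl26 and 5.08 for Ccl1. Ccl22 and Cxcl9 had more, with lowest values near 44.8 and 21.8 reads.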

Other observations

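Some chemokines carry other symbols and were measured in the same fits. Pf4, platelet factor 4, which platelets and macrophages make, ran from 0.797 RPKM in animal 3654 through a median of 3.46 to 21.6 in animal 4036. It rose with the macrophage score (0.51 ± 0.11), the stroma matrix score (0.62 ± 0.09) and the adipocyte score (0.58 ± 0.10, limma, adjusted p = 0.000141), the scores with which Ccl6, Ccl9 and Ccl11 rose. Used as predictors, these ligands had Pf4 slopes of 0.68 ± 0.08, 0.67 ± 0.08 and 0.62 ± 0.09. Ppbp, another platelet chemokine, had a median of 0.142 RPKM and at most 0.975, in animal 4142.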
